A study of Mus musculus with 6 samples.

Results

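The genes described here are 7 of the 32285 genes counted in 6 single-cell RNA sequencing libraries of mouse testis: the α-tubulin genes Tuba1a, Tuba1b, Tuba3a and Tuba3b and the β-tubulin genes Tubb3, Tubb4b and Tubb5. They were selected on their UMI counts across germ cell stages and other testis cells, and Tubb5 also on its diet contrast without 1 library, so those values are given as descriptions and without p-values. The files hold 13 further tubulin genes, which were read as part of the pathway. The testes were those of C57BL/6 wildtype mice (C57BL/6N in the study's methods), aged 8 weeks, that had been fed for 2 weeks on diets high in fat (HFD, 3 libraries) or low in fat (LFD, 3 libraries), and the study states 3 mice per diet. No transgene or other agent was used, and cells were freed from the tissue by enzyme digestion, so a class with few cells may be one that the digestion recovered poorly. GEO's titles, descriptions and treatment labels set the diets. The names of the deposited files give the opposite diet for each of the 6 libraries, so a library is called here by its label, and every sign of a diet difference would turn if the file names were right.

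Microtubules are built from dimers of an α- and a β-tubulin, and mammals encode each subunit in several genes whose products are called isotypes. In the testis, microtubules form the spindles of dividing spermatogonia and spermatocytes, the manchette that shapes the spermatid head, and the axoneme, the core of the sperm tail. Tuba3a and Tuba3b encode the testis α-tubulin isotype, Tubb4b a β-tubulin abundant in cilia and flagella, Tubb5 a β-tubulin of dividing cells, Tubb3 the β-tubulin best known from neurons, Tuba1a an α-tubulin of neurons and many embryonic tissues, and Tuba1b a widely expressed α-tubulin.

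Counts are of unique molecular identifiers (UMIs), so that copies of 1 captured RNA molecule count once, and they are given per barcode, which marks the droplet of a cell. The libraries held 5753 to 11095 barcodes and 39196921 to 95845514 UMIs. Marker UMIs, with no tubulin gene among them, placed 18446 of 48939 barcodes (37.7%) in 12 classes that held 62.0% of the UMIs. The remaining barcodes stayed without a class, and 1795 barcodes lay within 0.05 of the score needed. Classes are named for the cells whose markers they carry, as in spermatogonia-like, and the suffix is dropped hereafter. None of the markers of spermatids starting elongation was among the 10 genes with the largest fold in the class of that name, which is the least secure of the 12. Pairs of libraries shared 12 to 28 barcode sequences. Elongating spermatids made up 9.66% and 10.9% of barcodes in the replicate 1 libraries of HFD and LFD and 2.36% to 2.82% in the other 4, so these pairs of libraries stood apart by replicate number and not by diet. Levels are UMIs per 1000000 UMIs of a class in a library (CPM), given as mean ± SD over the 6 libraries. Since reads came from the 3′ end, 1 molecule gives 1 UMI whatever the length of its transcript, and the levels of different genes were compared on that scale.

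Tuba3a lies at chr6:125278274-125286042 on the minus strand and Tuba3b at chr6:145615757-145621479 on the plus strand (GRCm38, GENCODE). Tuba1a (chr15:98949837-98953703) and Tuba1b (chr15:98931425-98934565) are neighbours on the minus strand. Tubb3 lies at chr8:123411424-123422015 on the plus strand, Tubb4b at chr2:25222160-25224702 and Tubb5 at chr17:35833921-35838306, both on the minus strand. The reads of near-identical copies can be split or lost in counting. Of the 91-base windows in the last 500 bases of the transcript, 52.0% in Tuba1a and 60% in Tuba1b occurred unchanged in transcripts of other genes, against 21.7% in Tuba3a, 29.8% in Tuba3b, 12.2% in Tubb4b and 0% in Tubb3 and Tubb5, so the levels of Tuba1a and Tuba1b are the least certain.

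The upstream sequences of the 3 most abundant members are shown because these genes had the highest levels in meiotic and postmeiotic cells. Capital letters mark the letters CCAAT, searched on both strands, and each sequence reads 5′ to 3′ on the strand of the gene. RefSeq gives the 250 bases before the start of Tuba3a (GRCm38.p6, chr6:125286082-125286331, minus strand) and of Tubb4b (chr2:25224703-25224952, minus strand), neither of which overlaps a GENCODE exon.
Tuba3a: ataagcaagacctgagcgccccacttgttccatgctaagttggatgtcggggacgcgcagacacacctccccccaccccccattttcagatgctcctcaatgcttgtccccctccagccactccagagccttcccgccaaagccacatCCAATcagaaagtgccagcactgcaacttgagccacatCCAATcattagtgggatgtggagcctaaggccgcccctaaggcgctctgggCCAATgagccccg
Tubb4b: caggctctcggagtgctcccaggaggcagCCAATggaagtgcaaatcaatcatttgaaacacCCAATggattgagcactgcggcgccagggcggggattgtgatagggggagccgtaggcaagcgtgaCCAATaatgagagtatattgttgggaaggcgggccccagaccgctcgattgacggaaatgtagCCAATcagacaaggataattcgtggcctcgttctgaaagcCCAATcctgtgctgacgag

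The letters CCAAT stood 5 times in the Tubb4b sequence, 3 times in that of Tuba3a and 2 times in those of Tuba3b and Tubb5. Tuba1a and Tubb3 had 1 match each and Tuba1b had 0. GENCODE exons covered 202 of the 250 bases of Tuba1a, 175 of Tuba1b, 129 of Tubb3 and 5 of Tubb5. Much of the first 3 sequences is therefore upstream by RefSeq only, which limits a comparison between members. Of the 32851 RefSeq promoters of the same length, 33.9% held at least 1 match, 10.1% at least 2, 2.79% at least 3 and 0.840% at least 4. The letters TATAAA stood in 0 of the 7 sequences and in 12.4% of all promoters. The RefSeq windows of Tuba3a and Tuba3b were identical at 173 of 250 bases (69.2%), and those of the other pairs of members at 42.0% to 55.2%. In GENCODE, 206 of the 250 bases of the Tuba3b window lie in an exon, and both of its CCAAT matches lie in that exon. They are thus upstream of the RefSeq start only. For Tuba3b only this pair of matches is printed, each in 30 bases beside the matches of Tuba3a at like distances from the RefSeq start.
Tuba3a, chr6:125286166-125286195: ccaaagccacatCCAATcagaaagtgccag
Tuba3b, chr6:145615862-145615891: ccaaatttacatCCAATcagaaagtaccac
Tuba3a, chr6:125286128-125286157: cttgagccacatCCAATcattagtgggatg
Tuba3b, chr6:145615900-145615929: attgagccacatCCAATcgcaaaaaggacg
The pair farther from the RefSeq start was identical at 25 of 30 bases and the nearer pair at 22 of 30. A match of letters is a description of the sequence and was not tested as a binding site.

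Tuba3a and Tuba3b supplied nearly all α-tubulin UMIs of germ cells from spermatogonia to round spermatids. Both had their highest level in pachytene spermatocytes, the long middle phase of the first meiotic division. Tuba3b ran there from 1533 through a median of 2376 to 2774 CPM over the 6 libraries (2217 ± 545), and Tuba3a from 1281 through 1905 to 2270 (1798 ± 410). In spermatogonia Tuba3b stood at 674 ± 177 CPM and Tuba3a at 849 ± 210, and in early prophase spermatocytes at 603 ± 140 and 551 ± 139. From early prophase to pachytene the mean of Tuba3b was 3.67 times as high and that of Tuba3a 3.26 times, each in 6 of 6 libraries and with ranges that did not overlap. Late spermatocytes (1629 and 1534 CPM) lay below pachytene in 6 of 6 libraries for both genes, but the ranges over libraries overlapped. Early round spermatids held 1482 ± 369 CPM of Tuba3b and 1380 ± 310 of Tuba3a.

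The pair then fell away as spermatids elongated. Later round spermatids held 949 CPM of Tuba3b and 937 of Tuba3a, and spermatids starting elongation 847 and 652. In elongating spermatids Tuba3b ran from 143 through a median of 159 to 379 CPM and Tuba3a from 114 through 135 to 291. The ratio of elongating spermatids to those starting elongation was 0.242 for Tuba3b and 0.256 for Tuba3a, with ranges that did not overlap. Droplets also catch free RNA of lysed cells. In elongating spermatids Tuba3a and Tuba3b stood at 9.30% and 9.25% of their pachytene means. Of 4 markers of other germ cells, Piwil1, highest in pachytene spermatocytes, stood there at 2.63% of its highest class mean, Lyar, highest in late spermatocytes, at 10.5%, and Acrv1 and Spaca1, highest in later round spermatids, at 12.6% and 8.82%. The pair thus lay within the range of these markers but above Piwil1, and the part of free RNA in its level was not tested.

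**Figure D1:**
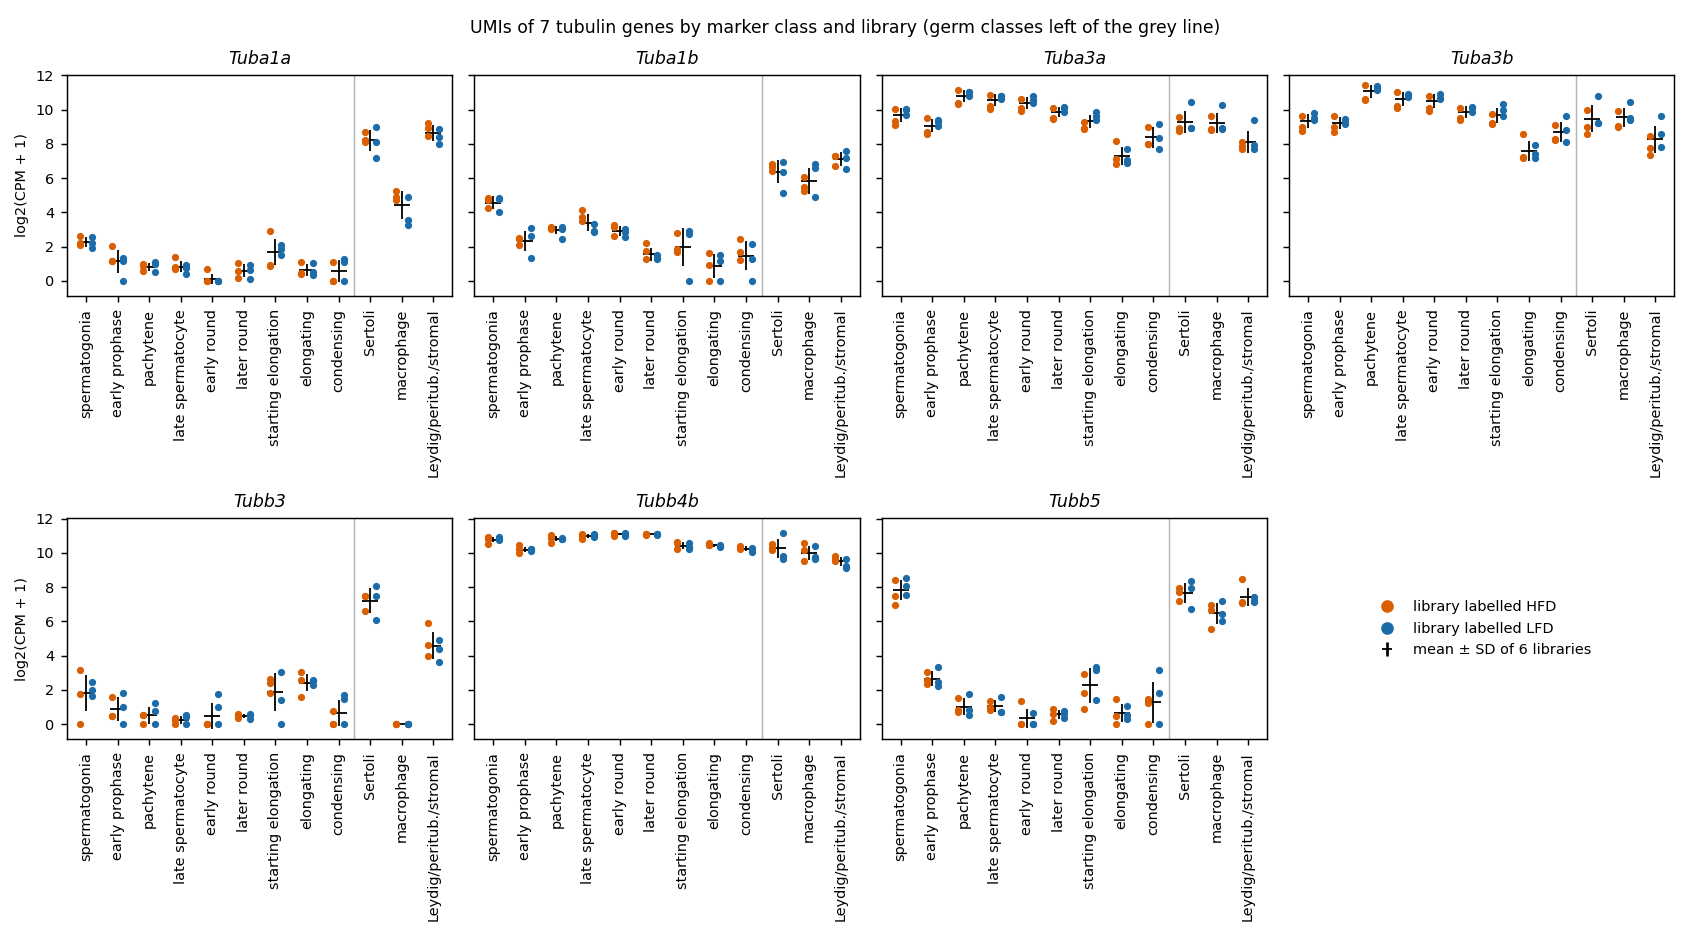
Level of each of the 7 genes, log2(CPM + 1), in 9 germ cell classes and 3 other classes. Points are libraries, coloured by the labelled diet, and bars give the mean ± SD of 6 libraries. Tuba3a, Tuba3b and Tubb4b stand high in germ cells, Tubb5 stands high in spermatogonia and the non-germ classes, and Tuba1a and Tubb3 stand high in Sertoli cells.

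The balance within the pair differed between stages although reads of both copies can be confused. The ratio of Tuba3a to Tuba3b was 1.27 ± 0.0822 in spermatogonia, above 1 in 6 of 6 libraries. It was 0.815 ± 0.0365 in pachytene spermatocytes, below 1 in 6 of 6 libraries, and 0.991 ± 0.0300 in later round spermatids. Across the 72 pairs of a class and a library, which share libraries and so are not independent, the levels of the pair followed each other with r = 0.976 on the log2(CPM + 1) scale. Of 14608 genes compared, the next most like Tuba3a were Pwwp3a (r = 0.941) and Cct7 (0.938), a subunit of the chaperonin that folds tubulin, and the next most like Tuba3b were Pwwp3a (0.927) and Tsta3 (0.927).

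Tuba3a and Tuba3b UMIs were also found in classes outside the germ line. In macrophages Tuba3a stood at 36.0% and Tuba3b at 35.9% of their pachytene means, where Piwil1 stood at 12.9% of its highest mean, Acrv1 at 12.7%, Spaca1 at 18.4% and Lyar at 45.7%. In Sertoli cells, the nurse cells of the tubule, the pair stood at 37.8% and 36.6%, against 10.8% for Piwil1, 16.8% for Acrv1, 25.9% for Spaca1 and 35.8% for Lyar. By these means the markers differed among themselves, with Lyar above the pair in macrophages and just below it in Sertoli cells, and the other 3 below it in both. The pair's levels were uneven over libraries. In Sertoli cells Tuba3a ran from 431 through a median of 489 to 1414 CPM and Tuba3b from 385 through 604 to 1783. In macrophages Tuba3a ran from 452 through 472 to 1242 and Tuba3b from 502 through 699 to 1399. The order of the pair against the nearest markers is therefore uncertain. In spermatogonia Tuba3a stood at 47.2% and Tuba3b at 30.4%, above each of the 4 markers (4.03% to 19.8%). The part of free RNA in these levels was not tested.

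Tubb4b was the main β-tubulin gene at every germ cell stage, and its level varied far less than that of the α pair. It was highest in early round spermatids, at 2024 through a median of 2230 to 2318 CPM (2190 ± 122), and in later round spermatids, at 2103 through 2200 to 2239 (2183 ± 54.2). These classes overlapped, and early round spermatids were higher in 4 of 6 libraries. Spermatogonia held 1764 ± 180 CPM and early prophase spermatocytes 1178 ± 128, a ratio of 0.668 with ranges that did not overlap. Pachytene spermatocytes were back at 1818 ± 173 CPM and elongating spermatids held 1391 ± 70.8. In elongating spermatids this was 63.5% of the highest class mean, above the 2.63% to 12.6% at which the 4 markers stood there. Macrophages held 48.6% of the highest mean, against 12.7% to 45.7% for the markers, and the Leydig, peritubular and stromal class 33.5% against 6.94% to 20.4%. Genes with the most similar pattern were Ppp1cc, the testis-enriched catalytic subunit of a protein phosphatase, (r = 0.831), Thop1 (0.829) and 1700022N22Rik (0.826).

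Summed over the tubulin genes, the α make-up of elongating spermatids differed from that of the earlier stages. Tuba3a and Tuba3b together made up 96.0 ± 1.03% of α-tubulin UMIs in spermatogonia, 99.5 ± 0.169% in pachytene spermatocytes and 99.2 ± 0.440% in early round spermatids. The share was 83.2 ± 7.62% in spermatids starting elongation and 40.6 ± 14.0% in elongating spermatids, where it ran from 29.4% to 64.8%. There Tuba8 made up 32.6 ± 8.79% and Tuba4a, an α-tubulin encoded without the terminal tyrosine, 24.2 ± 5.35%. Condensing spermatids, a class with elongating markers and low Tnp2, were at 88.7 ± 3.47% for the pair again, with Tuba3a at 19.8% and Tuba3b at 20.1% of their pachytene means. Piwil1 stood at 6.62% of its highest mean in that class, Acrv1 at 8.60%, Spaca1 at 15.6% and Lyar at 29.4%. The β make-up changed less: Tubb4b made up 87.0 ± 3.87% in spermatogonia, 99.6 ± 0.227% in pachytene spermatocytes and 96.5 ± 0.503% in elongating spermatids. Tubb6 took 5.38 ± 0.650% in later round spermatids.

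**Figure D2:**
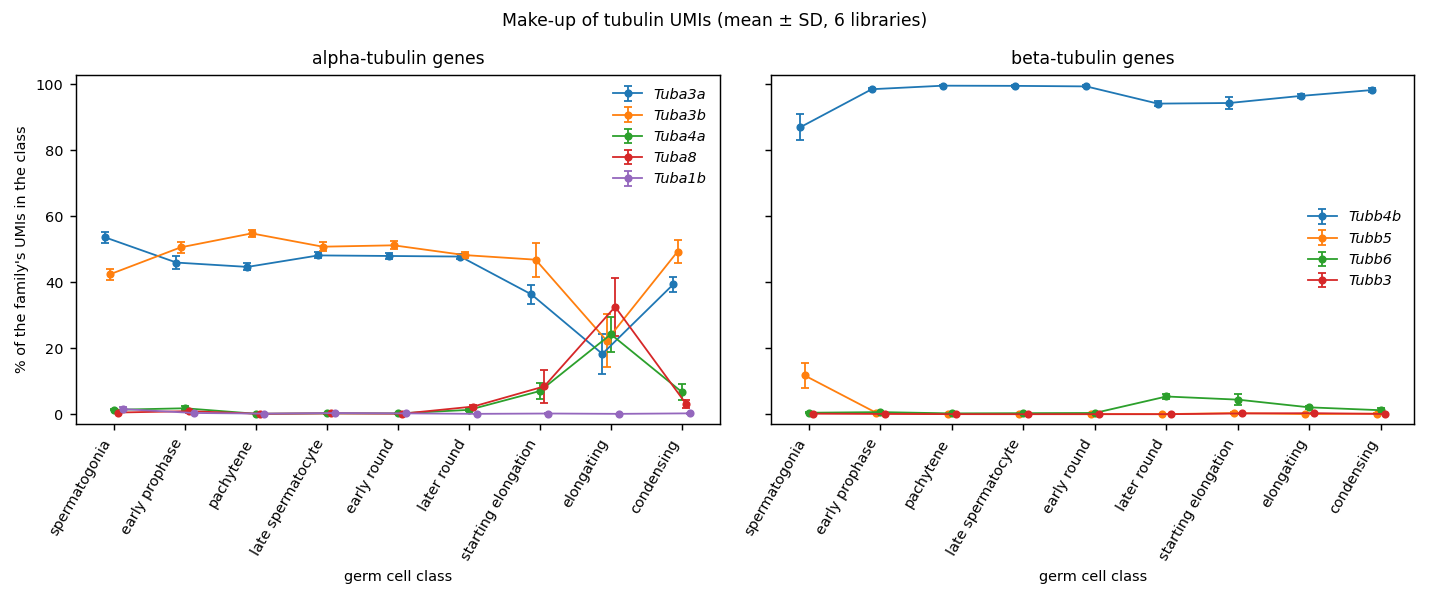
Share (%) of all α-tubulin UMIs (left) and all β-tubulin UMIs (right) that each gene supplied in the 9 germ cell classes, as mean ± SD of 6 libraries. Tuba3a and Tuba3b fall to 18.3% and 22.3% in elongating spermatids, where Tuba8 and Tuba4a reach 32.6% and 24.2%, while Tubb4b stays at 87.0% or more.

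Tubb5 was a gene of spermatogonia among germ cells. It ran there from 125 through a median of 229 to 369 CPM (244 ± 95.8) and stood at 5.57 ± 2.06 CPM in early prophase spermatocytes, 1.14 ± 0.778 in pachytene spermatocytes and 3 UMIs in all in early round spermatids, where 4 libraries were at 0. Of its 4774 UMIs, 52.0% lay in spermatogonia, 25.3% in Sertoli cells and 9.91% in barcodes without a class. After each barcode was thinned to 1000 UMIs, 14.5 ± 3.71% of spermatogonia (median depth 9626 UMIs) carried a Tubb5 UMI, against 0.667 ± 0.402% of early prophase spermatocytes (6912 UMIs). The unthinned shares were 44.1% and 4.47%. Tubb5 made up 11.8 ± 3.82% of the β-tubulin UMIs of spermatogonia.

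Outside the germ line Tubb5 stood at 213 ± 78.9 CPM in Sertoli cells, 181 ± 86.0 in the Leydig, peritubular and stromal class and 94.3 ± 36.9 in macrophages. Spermatogonia exceeded Sertoli cells in 3 of 6 libraries, so these levels were not ordered. The step from macrophages to early prophase spermatocytes was 16.9-fold, with ranges that did not overlap. In macrophages Tubb5 stood at 38.7% of its spermatogonial mean, whereas the spermatogonial marker Uchl1 stood there at 1.71% of its own and the Sertoli marker Defb19 at 0.775% of its own. In Sertoli cells Uchl1 stood at 25.5% of its spermatogonial mean and Tubb5 at 87.3%. Among the genes most like Tubb5 over the 72 points were Sdc4 (r = 0.966) and Psme2 (0.949), which encode a cell-surface proteoglycan and a proteasome activator subunit.

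Tuba1a, Tuba1b and Tubb3 had their highest levels outside the germ line. Tuba1a stood at 252 through a median of 403 to 592 CPM in the Leydig, peritubular and stromal class and at 145 through 288 to 496 in Sertoli cells. The Leydig, peritubular and stromal class held only 177 barcodes, 9 to 71 per library. The markers among its 10 genes of largest fold were Acta2, Tagln, Myh11 and Dcn. Tuba1a stood at 23.1 ± 11.1 CPM in macrophages, 13.8-fold below Sertoli cells with ranges that did not overlap, and at 3.93 ± 0.976 or less in each germ cell class. Of its 2771 UMIs, 60.8% lay in Sertoli cells. Tuba1b was spread more widely, at 140 ± 36.3 CPM in the Leydig, peritubular and stromal class, 88.9 ± 31.5 in Sertoli cells, 63.7 ± 34.0 in macrophages and 23.5 ± 5.52 in spermatogonia, and at 1.02 ± 0.893 in elongating spermatids. Of the 2775 Tuba1b UMIs, 16.0% lay in Sertoli cells and 6.38% in the Leydig, peritubular and stromal class. Germ cells held many of them, with 14.8% in pachytene spermatocytes, 8.65% in late spermatocytes and 8.36% in spermatogonia, and 29.8% lay in barcodes without a class.

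Tubb3 was a gene of Sertoli cells, with 67.2 through a median of 178 to 268 CPM (161 ± 70.7). The next class, with Leydig, peritubular and stromal markers, held 26.4 ± 17.2 CPM, a 6.10-fold lower mean with ranges that did not overlap. Macrophages held 0 Tubb3 UMIs among 1300328, which allows up to 2.31 CPM by counting error alone. Elongating spermatids held 4.64 ± 1.69 CPM of Tubb3, 171 UMIs in all, the highest of the germ cell classes. Genes most like Tuba1a were Tceal8 (r = 0.959), Slc25a4 (0.957), an exchanger of adenine nucleotides in mitochondria, and Vim (0.953), the intermediate filament protein vimentin. Those most like Tuba1b were Itm2c (0.914), Clic1 (0.90) and Mdh1 (0.90), a malate dehydrogenase, and those most like Tubb3 were Tst (0.910), Kank1 (0.890) and Prcd (0.877).

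Pairs of germ cell stages with other classes between them were also compared over all genes in models of the summed UMIs. The library was a block (edgeR's quasi-likelihood test, Benjamini-Hochberg adjustment, two-sided). A rise or fall in these contrasts is between the classes named and does not describe the classes between them. Between spermatogonia and pachytene spermatocytes, 41.2% of the genes tested were higher and 43.0% lower in pachytene at an adjusted p under 0.05. From pachytene to early round spermatids 39.0% were higher and 45.0% lower, and from early round to elongating spermatids 39.0% were higher and 44.9% lower. With so many genes changing, a call on a single gene is common. The members' own changes are descriptions. Pachytene minus spermatogonia was 2.13 ± 0.112 (log2, SE) for Tuba3b, 1.49 ± 0.106 for Tuba3a, 0.45 ± 0.0940 for Tubb4b, -1.35 ± 0.163 for Tuba1b and -7.13 ± 0.234 for Tubb5. Without the scaling factors that edgeR computes, the value for Tubb4b was 0.04. Early round minus pachytene was -0.47 ± 0.0467 for Tuba3b, -0.26 ± 0.0430 for Tuba3a and 0.39 ± 0.0404 for Tubb4b.

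The scale mattered most for elongating spermatids. Elongating minus early round was -1.68 ± 0.218 for Tuba3b and -1.86 ± 0.209 for Tuba3a with edgeR's scaling, and -2.91 and -3.09 on the CPM scale. For Tubb4b it was 0.59 ± 0.0992 with edgeR's scaling but -0.65 on the CPM scale and -1.28 in UMIs per barcode, so no direction is given for this gene. The median of all genes was -0.194 with edgeR's scaling and -1.45 with library totals. Tuba1a and Tubb3 were too low to be tested in these contrasts.

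The other tubulin genes with at least 10 CPM in some class were described by a fixed list. Tuba8 was highest in elongating spermatids at 291 ± 83.5 CPM, and its level was 7.48 ± 0.389 higher there than in early round spermatids (log2, adjusted p = 3.05e-09, edgeR). Tuba4a was highest there too, at 215 ± 41.9 CPM, with a change of 6.39 ± 0.243 (adjusted p = 6.61e-10, edgeR). On the CPM scale these changes were 6.06 and 4.93, so both genes rose under either scaling. Tubb6, a β-tubulin, was highest in later round spermatids at 124 ± 14.2 CPM and rose by 3.13 from early round to elongating spermatids (adjusted p = 2.34e-07, edgeR), or 1.87 on the CPM scale. Tubg1, the γ-tubulin of the spindle poles, was highest in spermatogonia at 59.1 ± 14.2 CPM. Tubd1 (δ-tubulin) was highest in late spermatocytes at 48.9 CPM and Tube1 (ε-tubulin) in spermatogonia at 17.6. Tubb2a (61.4 CPM), Tuba1c (34.0) and Tubb2b (15.6) were highest in macrophages.

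Of the other tubulin genes tested, 1 of 7 rose and 5 fell from spermatogonia to pachytene, 1 of 4 rose and 2 fell from pachytene to early round spermatids, and 6 of 7 rose and 1 fell from early round to elongating spermatids. With library totals the last contrast gave 6 and 1 as well. All genes tested gave 41.2% higher and 43.0% lower, 39.0% and 45.0%, and 39.0% and 44.9% in these contrasts with edgeR's scaling.

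The genes that fold tubulin and assemble its dimers, the prefoldin and chaperonin subunits and the tubulin cofactors, gave 14 higher and 4 lower of 23 tested in pachytene spermatocytes. In early round spermatids 8 of 23 were higher and 11 lower than in pachytene. In elongating spermatids 7 of 21 were higher and 14 lower than in early round. Of all genes tested, 41.2% were higher and 43.0% lower in pachytene. The shares were 39.0% and 45.0% in early round and 39.0% and 44.9% in elongating spermatids. The split of this list in early round spermatids was thus near that of all genes. Vbp1, a prefoldin subunit, was highest in spermatogonia at 47.7 ± 12.8 CPM, fell by 5.86 into pachytene (adjusted p = 1.46e-09, edgeR), rose by 4.77 into early round spermatids (3.15e-07) and fell by 3.20 into elongating spermatids (4.89e-06). Pfdn2, another prefoldin subunit, was highest in spermatogonia at 271 ± 31.2 CPM and fell by 3.24 from pachytene to early round spermatids (adjusted p = 1.27e-10, edgeR). Ttc5, which binds nascent tubulin and regulates the decay of its mRNA, fell by 4.96 in the same step (adjusted p = 4.54e-08, edgeR).

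Of the genes for enzymes that modify tubulin, 17 of 23 tested were higher and 3 lower in pachytene spermatocytes than in spermatogonia. From pachytene to early round spermatids 15 of 22 were higher and 5 lower, and from early round to elongating spermatids 12 of 23 were higher and 7 lower. The shares of all genes were 41.2% higher and 43.0% lower, 39.0% and 45.0%, and 39.0% and 44.9% in these contrasts. Hdac6, a tubulin deacetylase, was highest in spermatogonia at 98.3 ± 14.9 CPM and fell by 7.73 into pachytene (adjusted p = 4.93e-11, edgeR). Ttll8, a glycylase of tubulin, was lowest in pachytene spermatocytes at 2.66 CPM and highest in spermatids starting elongation at 106 ± 23.8. It rose by 3.67 from pachytene to early round spermatids (adjusted p = 4.22e-07, edgeR) and by 3.05 from early round to elongating spermatids (5.91e-08). Ttll7, a glutamylase, fell by 1.42 into pachytene (adjusted p = 0.00015, edgeR), rose by 4.35 into early round spermatids (1.11e-08) and was highest in later round spermatids at 302 ± 21.6 CPM.

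Of the genes for severing, end binding and the manchette, 17 of 24 tested were higher and 5 lower in pachytene spermatocytes than in spermatogonia. All genes gave 41.2% and 43.0% there. In early round spermatids 10 of 22 were higher and 5 lower than in pachytene, against 39.0% and 45.0% of all genes. In elongating spermatids 8 of 22 were higher and 11 lower than in early round, near the 39.0% and 44.9% of all genes. Katnbl1, a regulator of the severing enzyme katanin, fell by 2.63 into pachytene (adjusted p = 4.15e-08, edgeR). Mapre2, which binds microtubule ends, fell by 4.10 in the same step (adjusted p = 1.09e-08, edgeR). Fignl1, a relative of the severing enzyme fidgetin, rose by 1.70 into pachytene (adjusted p = 8.98e-09, edgeR) and fell by 3.03 into early round spermatids (3.14e-10).

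These counts depended on the scaling as well. With library totals in place of edgeR's factors, the share of called genes that were higher was 38.6% in place of 48.9% in pachytene spermatocytes and 25.3% in place of 46.5% in elongating spermatids. The 3 lists other than the tubulin genes then gave 11 higher and 9 lower (folding), 13 and 4 (modification) and 16 and 7 (severing) in pachytene, and 1 and 18, 5 and 16, and 2 and 18 in elongating spermatids. For early round spermatids they gave 5 and 13, 15 and 5, and 9 and 8.

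Whether 2 weeks of diet altered these genes was asked in the whole testis and in the 11 classes with at least 20 barcodes in each library. In each class sum, 3 to 7 of the members passed the filter on low counts. Of the 50 pairs of a member and a sum tested other than Tubb5, 0 were called, and 5 had an unadjusted p under 0.05. Among the latter were Tuba3a and Tuba3b in early round spermatids (unadjusted p = 0.0467 and 0.0400, edgeR), whose levels followed each other. The pairs share libraries and so are not independent. Over all genes, 0.0% were called in the whole testis and in 10 of the 11 classes, and 0.0736% in spermatids starting elongation. In the whole testis 471 of 20727 genes had an unadjusted p under 0.05 (edgeR), and DESeq2 called 0. By class, this share was smallest in condensing spermatids (29 of 5990 genes) and largest in spermatids starting elongation (830 of 6797). In early round spermatids it was 327 of 8232. The labels do not tie libraries to mice, so the p-values measure the spread between these libraries.

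In the whole testis, where fewer cells of a type and less RNA per cell cannot be told apart, Tuba3b stood at 1308, 910 and 928 CPM in the libraries labelled HFD and at 1143, 1377 and 1231 in those labelled LFD. HFD replicate 1 lay among the LFD libraries and the other HFD libraries lay below them. The fitted change of Tuba3b was -0.18 ± 0.176 (log2, HFD minus LFD, adjusted p = 0.986, edgeR). Tuba3a changed by -0.17 ± 0.170, Tuba1b by 0.21 ± 0.188, Tuba1a by -0.45 ± 0.511 and Tubb3 by -0.44 ± 0.510, each with an adjusted p of 0.986 (edgeR). Tubb4b changed by 0.08 ± 0.126 (adjusted p = 0.988, edgeR), with levels between 1718 and 1868 CPM in the 6 libraries.

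By class, Tuba3a was lower in the HFD-labelled libraries in 10 of 11 classes (median log2 change -0.32, range -0.57 to 0.14) and Tuba3b in 10 of 11 (median -0.42, range -0.64 to 0.19). Elongating spermatids were the exception for both. Without HFD replicate 1 their medians were -0.63 and -0.71. That fit keeps LFD replicate 1, so diet and the split by replicate number are then mixed. With all libraries and the GC trend taken out, the medians were -0.22 and -0.29. These classes come from the same 6 libraries and may share free RNA, so they are not separate observations. Tubb4b was lower in 4 classes and higher in 7 (median 0.03), but lower in 8 and higher in 3 without HFD replicate 1 (median -0.08) and higher in 11 of 11 with the GC trend taken out (median 0.15), so no direction is given for it.

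In early round spermatids Tuba3b stood at 1751, 964 and 1110 CPM in the HFD libraries and at 1624, 1541 and 1902 in the LFD libraries. HFD replicate 1 was the second highest of the 6, so the groups overlapped. The change was -0.42 ± 0.187 for Tuba3b and -0.37 ± 0.173 for Tuba3a (adjusted p = 0.904 for both, edgeR). Without HFD replicate 1 the changes were -0.73 ± 0.110 (adjusted p = 0.0183, edgeR) and -0.63 ± 0.115 (adjusted p = 0.0339), while 1.28% of all genes were then called lower. This fit keeps LFD replicate 1, so it mixes diet with the split by replicate number. With each library's trend on the GC content of genes also taken out, the changes were -0.54 (adjusted p = 0.0950, edgeR) and -0.43 (adjusted p = 0.224), and neither was called. Since the replicate 1 libraries stood apart from the other 4, the contrast was also taken within each set. On the log2(CPM + 1) scale Tuba3b in early round spermatids differed by 0.11 between the replicate 1 libraries, 1 per diet, and by -0.73 among the other 4. Tuba3a differed by 0.06 and -0.61.

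In spermatids starting elongation Tuba3a ran from 457 to 626 CPM in the HFD libraries and from 661 to 911 in the LFD libraries, with no overlap. The change was -0.57 ± 0.220 (adjusted p = 0.269, edgeR), and 16.3% of all genes in this class had groups that did not overlap. In late spermatocytes Tuba1b ran from 10.1 to 16.8 CPM in the HFD libraries and from 6.38 to 9.09 in the LFD libraries, a change of 0.79 ± 0.289 (adjusted p = 1.00, edgeR), where 6.52% of genes did not overlap. In elongating spermatids Tubb4b ran from 1394 to 1517 CPM against 1310 to 1385, a change of 0.06 ± 0.184 (adjusted p = 1.00, edgeR), where 4.6% of genes did not overlap. None of these changes passed the test.

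**Figure D3:**
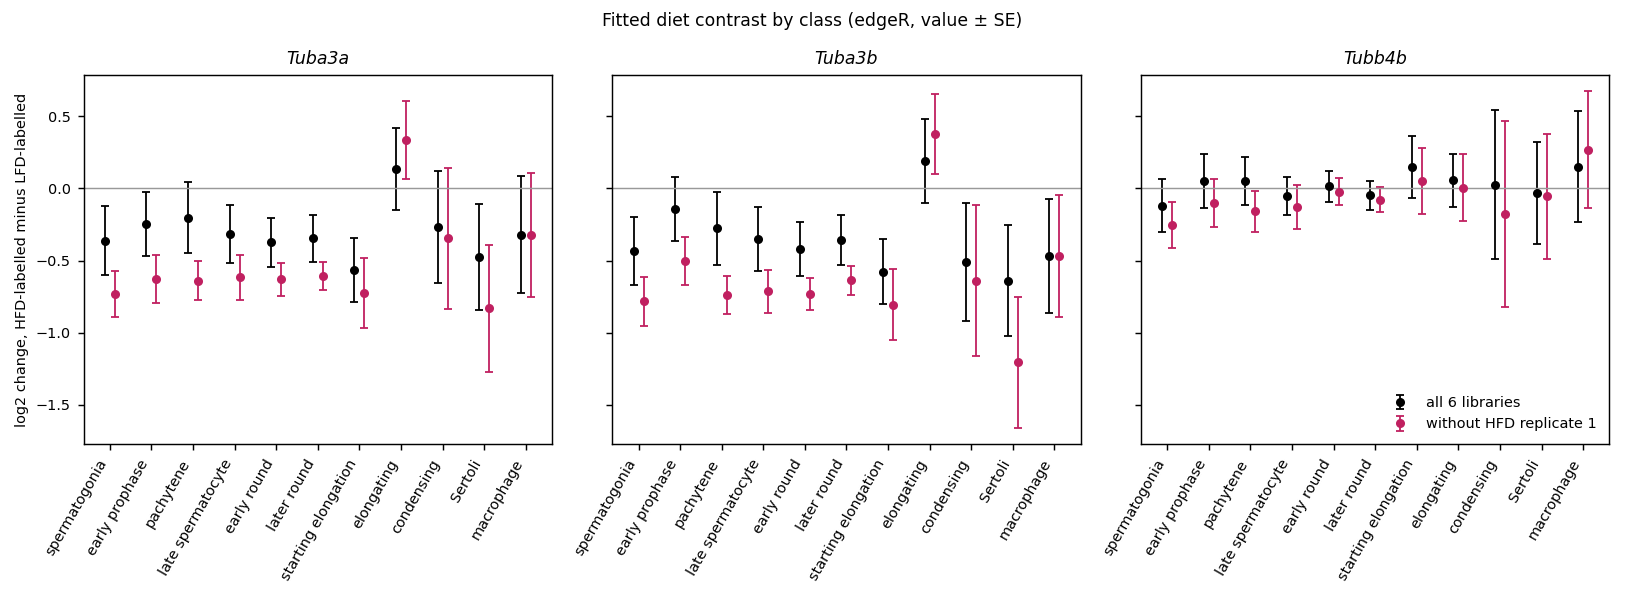
Fitted log2 change, libraries labelled HFD minus those labelled LFD, of Tuba3a, Tuba3b and Tubb4b in 11 classes (value ± SE, edgeR). Black points use all 6 libraries and red points leave out HFD replicate 1. Tuba3a and Tuba3b lie below 0 in 10 of 11 classes with all libraries, and further below it in most classes without HFD replicate 1, while Tubb4b stays close to 0.

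Tubb5 was chosen with its diet contrast known, so the following values carry no test. In the whole testis it stood at 17.2, 4.24 and 4.32 CPM in the HFD libraries and at 14.1, 12.6 and 13.6 in the LFD libraries. HFD replicate 1 held the highest level and the other HFD libraries the lowest. The fitted change was -0.56 ± 0.476, the largest in size of the 7 members in the whole testis, and -1.69 without HFD replicate 1. Leaving out any other library gave -0.22 to -0.62. Between the replicate 1 libraries it differed by 0.27, and among the other 4 by -1.42, on the log2(CPM + 1) scale.

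Within spermatogonia, the germ cells that carried most of its UMIs, Tubb5 stood at 334, 125 and 178 CPM in the HFD libraries and at 269, 189 and 369 in the LFD libraries, and the groups overlapped. The change was -0.35 ± 0.331. It was -0.92 without HFD replicate 1, -0.07 without HFD replicate 2 and -0.10 without LFD replicate 3. Within Sertoli cells it stood at 245, 147 and 208 CPM against 326, 104 and 248, a change of -0.15 ± 0.374, and in macrophages the change was -0.02 ± 0.520. The fitted change with all libraries was smaller in size within each of these classes than in the whole testis. The values overlapped within their SEs, and the difference was not tested.

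The shares of the classes that held most Tubb5 UMIs were set beside its whole-testis level. Spermatogonia made up 2.51%, 1.06% and 0.973% of barcodes in the HFD libraries and 2.82%, 1.53% and 1.79% in the LFD libraries. Sertoli cells made up 4.32%, 0.369% and 0.50% against 4.95%, 0.901% and 1.43%. Both shares were lowest in HFD replicates 2 and 3, as was Tubb5. Among the remaining libraries the order differed. HFD replicate 1 held the highest Tubb5 level, but LFD replicate 1 held the largest share of both classes. Summed over the whole testis, the 10 Sertoli markers reached 56.0 to 299 CPM in the HFD libraries and 176 to 353 in the LFD libraries, and 10 of 10 had a lower HFD mean. The 10 spermatogonial markers summed to 667 to 776 CPM against 703 to 831, and 10 of 10 had a lower HFD mean. None of these markers was at 0. The spermatogonial sum is not that of spermatogonia alone, since only 8 of its 10 markers were highest in that class. Pooled over libraries, Dmrtb1 stood at 219 CPM in spermatogonia but at 726 in pachytene and 1116 in late spermatocytes. The 10 macrophage markers summed to 69.2 to 117 CPM against 72.6 to 119, with 6 of 10 lower, and the 14 Leydig, peritubular and stromal markers to 19.7 to 109 against 55.9 to 89.1, with 13 of 14 lower. Lists of germ cells with little Tubb5 differed too. Of the later round spermatid markers 9 of 9 had a lower HFD mean (summed 1998 against 2272 CPM). This held for 7 of 8 early round spermatid and 6 of 7 late spermatocyte markers. It held for 1 of 10 early prophase, 3 of 8 pachytene, 3 of 6 starting elongation, 4 of 7 elongating and 4 of 7 condensing markers. The part of any of these cells in the level of Tubb5 was not tested.

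**Figure D4:**
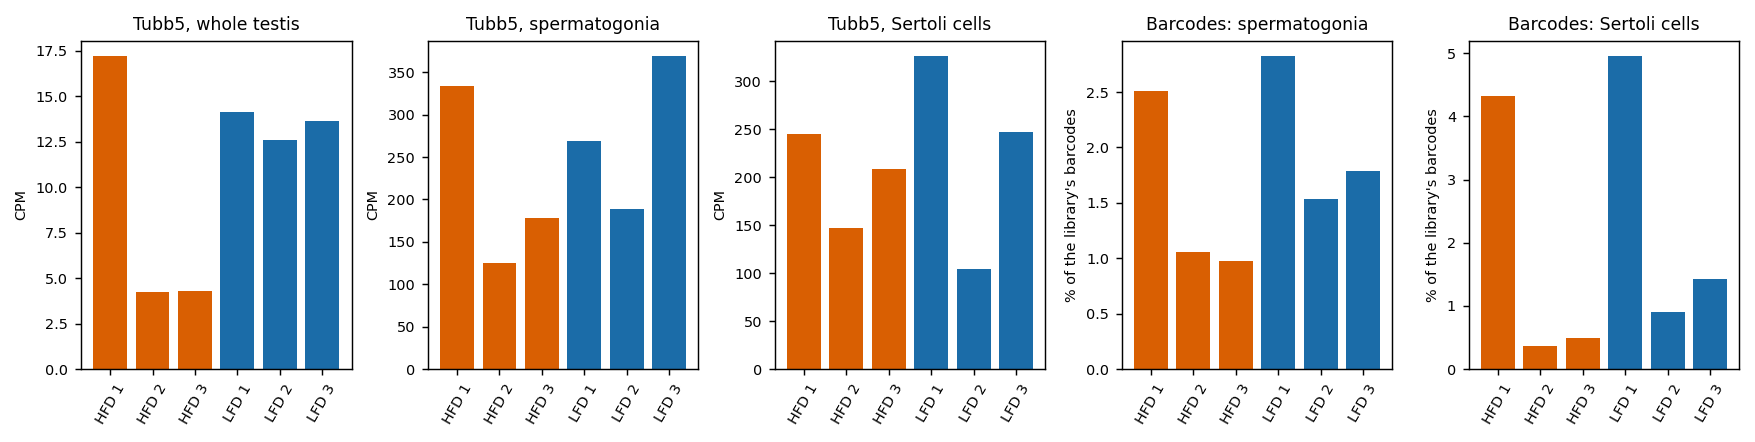
Tubb5 in CPM in the whole testis, in spermatogonia and in Sertoli cells of each library, and the percent of each library's barcodes in the classes of spermatogonia and Sertoli cells, coloured by the labelled diet. Each bar is 1 library. HFD replicates 2 and 3 have the lowest whole-testis Tubb5 (4.24 and 4.32 CPM) and the smallest shares of both classes.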

How the data were processed

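Testis cells of 3 mice per diet were run on a droplet platform, and the labels and the study's methods name different versions of the 3′ library kit. Per the submitters' processing notes, the authors aligned reads to mm10 and counted UMIs with Cell Ranger 6.0.1. The deposited matrices hold these raw counts, not normalized, of barcodes chosen by the authors. Filters of at least 200 and at most 40000 genes removed 0 of 48939 barcodes. Depth was 39196921 to 95845514 UMIs per library, and intervals and floors cover counting error only.

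Libraries were grouped by their titles. Each barcode was scored on marker lists after scaling to 10000 UMIs (z values held within -3 and 6) and took the class of its best list at a score of at least 0.7 and a lead of at least 0.3, limits set after seeing the data (stricter alternative: 0.9 and 0.5). Doublets were kept, and an alternative left out the 3356 barcodes of highest Scrublet score. UMIs were summed per library and class and tested with edgeR 4.0.16 (TMM, its default filter, quasi-likelihood test, adjusted p under 0.05) in R 4.3.3. DESeq2 1.42.0 was an alternative, as were each library's GC trend taken out, the replicate 1 libraries as a batch, each library left out and barcodes of at least 2000 UMIs. Classes, levels and motifs were computed in Python 3.11.15 with scanpy 1.11.5, numpy 2.4.6, scipy 1.17.1 and pandas 2.3.3. The tests were run on simulated data first. Promoters came from RefSeq (GRCm38.p6). The motif search also covered GGGCGG, TGACGTCA and CACGTG.

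The members and gene lists were chosen with earlier results of these data known, and the use of library totals in place of TMM in the stage contrasts was added after seeing the data. Named were the 7 members, other tubulin genes of at least 10 CPM in a class, up to 3 genes per pathway list with the widest range over classes among those called, and the 3 genes most correlated with each member, of which 1 is not reported here. Cell types and test results of the authors were not used here.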

Additional observations from a re-analysis of the deposited data

How the results depend on the processing

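The 7 genes kept their class of highest level under each of the 12 settings tried for 6 of them, and Tubb4b was highest in early round spermatids under 6 settings and in later round spermatids under the other 6. The members' diet changes moved by less than the spread between libraries in 806 of 845 recomputed values and by more in the other 39. The genes called between stages ranged from 9532 to 13122 for pachytene minus spermatogonia (9877 as reported), from 7432 to 11608 for early round minus pachytene (8269) and from 6697 to 10686 for elongating minus early round (7552). The pathway genes called ranged from 63 to 69 (66 as reported), 51 to 61 (57) and 61 to 69 (66). For elongating minus early round, the share of called genes that were higher was 46.5% as reported, 59.8% by DESeq2, 52.5% with DESeq2's size factors and 25.3% with library totals.

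The counts for diet were small and depended on the setting. In the whole testis, where 0 genes were called as reported, leaving out 1 library gave 0 to 2 calls, and leaving out HFD replicate 1 with the GC trend taken out gave 21. Summed over 11 classes, the 5 calls became 41 by DESeq2, 3 with DESeq2's size factors, 201 with no filter on low counts, 68 with the replicate 1 libraries as a batch, 57 without HFD replicate 1 and with the GC trend taken out, 1 without the doublet candidates, 0 under the stricter class rule and 0 with barcodes of at least 2000 UMIs. Leaving out 1 library gave 1 call (without HFD replicate 3) to 232 calls (without LFD replicate 1). Of the members other than Tubb5, leaving out 1 library gave 0 to 2 calls, the 2 being Tuba3a and Tuba3b in early round spermatids without HFD replicate 1. The causes were not tested.

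With the replicate number as a block the calls were 24 in the whole testis, 233 over the classes and 2 among the members, Tuba3a and Tuba3b in spermatids starting elongation (adjusted p = 0.0385 and 0.0333, edgeR). Libraries of the same number deviated together with correlations of 0.485, 0.0315 and 0.261, and HFD replicate 2 correlated best with LFD replicate 3 (0.298), so the numbers were not taken to pair the libraries, and a call that changes under the block is not read as a stronger or weaker effect. Depth limited Tubb3, Tuba1a, Tuba1b and Tubb5 most, with 1530, 2771, 2775 and 4774 UMIs in all.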
